A study of Mus musculus with 6 samples.

Results

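The 32 genes described here encode mouse glutamate receptors and the auxiliary subunits that travel with them, out of 37620 genes counted in each library. They were taken from a list of gene names, drawn up by function with earlier results of these data known: 4 AMPA receptor subunits, 5 kainate receptor subunits, 7 NMDA receptor subunits, the delta receptor Grid1, 7 metabotropic receptors, the 2 NETO proteins and 6 transmembrane AMPA receptor regulatory proteins (TARPs). All 32 were found in the tables by their Ensembl identifiers. RNA was sequenced from 3 groups of J1 cells, a mouse embryonic stem cell line, with 2 libraries in each group. The NPC libraries came from wild-type neural progenitor cells obtained from J1 stem cells by differentiation in culture. The Phc1-KO libraries carry the genotype Phc1-/-, a loss of a Polycomb subunit. The ESC libraries came from wild-type J1 embryonic stem cells. Per the labels, stem cells were kept in LIF and fetal bovine serum on mitomycin-inactivated embryonic fibroblasts, which were removed before the experiments. The study title calls the Phc1-KO cells stem cells, whereas their cell type entry reads NPC. The labels do not say whether the Phc1-KO libraries come from 1 clone or several.

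Fast excitatory transmission in the brain runs through ionotropic glutamate receptors, which are cation channels built of 4 subunits from a single family. AMPA receptors carry the fast current, NMDA receptors admit calcium and need both glycine and glutamate, and kainate receptors modulate transmission on both sides of the synapse. Metabotropic receptors signal through G proteins. Progenitors and astrocytes are known to express some of them too, mGlu5 among them, where it gives rise to calcium signals.

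The libraries held between 15226214 and 21893821 counts in genes. Within pairs, a chi-square of counts over genes, divided by its degrees of freedom, was 47 for NPC, 50.3 for Phc1-KO and 1.44 for ESC, where sampling noise alone gives a value near 1. The ESC pair thus differed slightly more than sampling noise and far less than the others, and it was also counted as 1 library. Phc1 was read at 326 and 268 CPM (CPM, read counts scaled to library size) in the Phc1-KO libraries, against 460 and 461 CPM in ESC, and at 40.8 and 34.6 CPM in NPC. A count over the whole gene does not show which exons were deleted, so this level is no check of the knock-out. The 7 stem cell markers summed to 7.04 and 7.4 CPM in NPC, to 2228 and 2712 CPM in Phc1-KO and to 2219 and 2232 CPM in ESC. By these markers the Phc1-KO libraries resembled the stem cell group and not the cell type written in their label.

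NPC expressed most of the receptor genes, and the stem cell groups expressed few. At a minimum of 1 CPM in both libraries, 23 of the 32 genes were detected in NPC, 11 in Phc1-KO and 12 in ESC. Of these, 10 were detected in every group: Gria3, Gria4, Grik3, Grik5, Grin2b, Grin2d, Grin3a, Neto2, Cacng7 and Cacng8. Another 12 were detected in NPC and in neither other group: Gria1, Gria2, Grik1, Grik2, Grik4, Grin2a, Grid1, Grm3, Grm4, Grm5, Neto1 and Cacng4. Grm6 was detected in Phc1-KO alone and Grin1 in ESC alone, while Grm8 was detected in NPC and ESC. The remaining 7 genes, Grin2c, Grin3b, Grm2, Grm7, Cacng2, Cacng3 and Cacng5, were detected in no group by this rule. Summed over the 32 genes, the receptors took 1297 and 1015 CPM in NPC, 137 and 114 CPM in Phc1-KO, and 130 and 134 CPM in ESC. In RNA from whole cultures, fewer cells expressing a gene and less RNA per cell cannot be told apart.

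**Figure D1:**
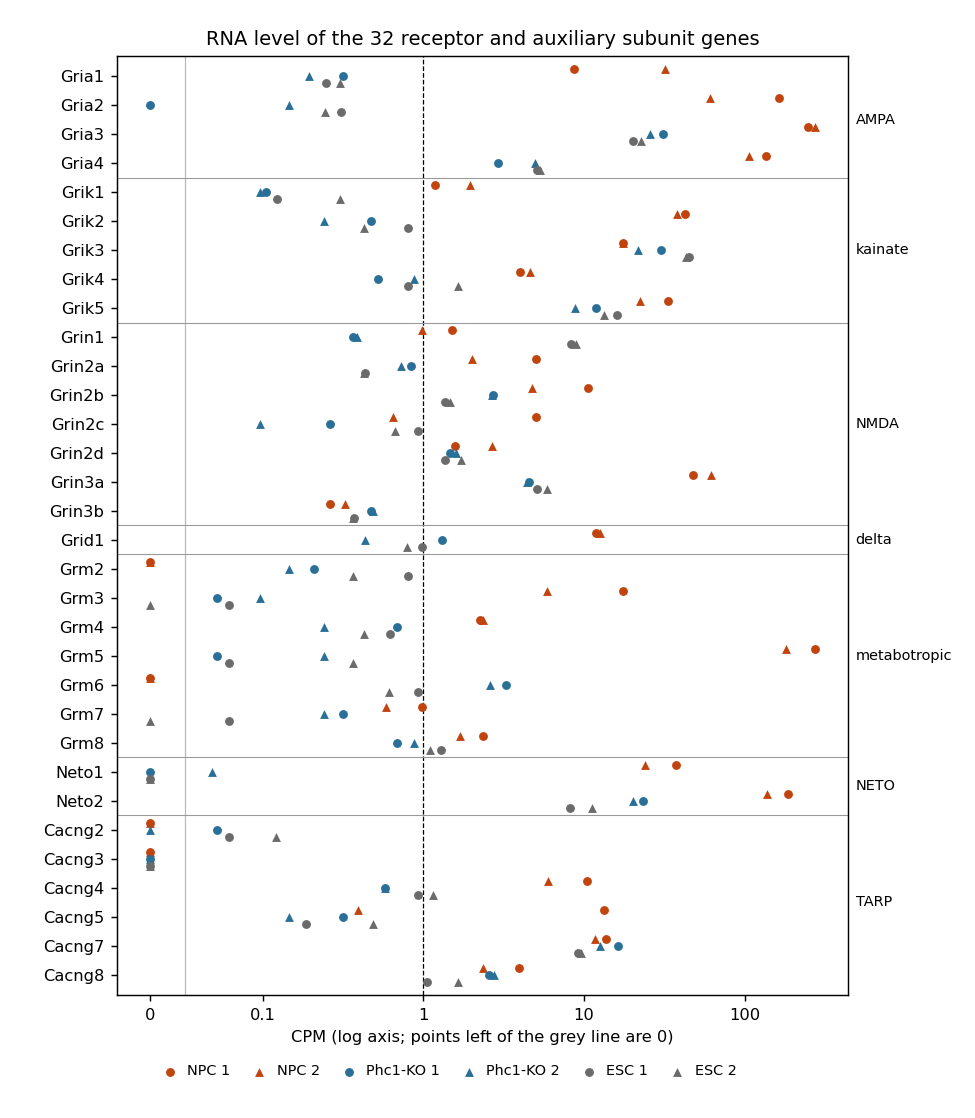
CPM (log axis) of each of the 32 genes, by family, in NPC, Phc1-KO and ESC libraries. A circle is library 1 and a triangle is library 2. The dashed line marks 1 CPM, and points left of the grey line had no counts. Most NPC points lie to the right of the stem cell points, while for Grik3, Grin1 and Grm6 both NPC points lie left of both ESC points. The same order for Grin3b, Grm2 and Cacng2 rests on low counts, and these genes were not tested.

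Between NPC and ESC, 26 of the 32 genes had enough counts to test, and 22 passed an adjusted p of 0.05 (edgeR's quasi-likelihood test, Benjamini-Hochberg adjustment over 17489 genes). Of the 26, 19 were higher in NPC and 3 were lower. Over all genes tested, 30.4% were higher and 30.9% were lower. The median log2 fold change was 2.90 over the 26 receptor genes and -0.01 over all genes. The filter on low counts can let a gene through on its level in a single group, so these 26 do not stand for all 32. The 3 genes lower in NPC were the kainate subunit Grik3, the NMDA subunit Grin1 and the metabotropic receptor Grm6.

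**Figure D2:**
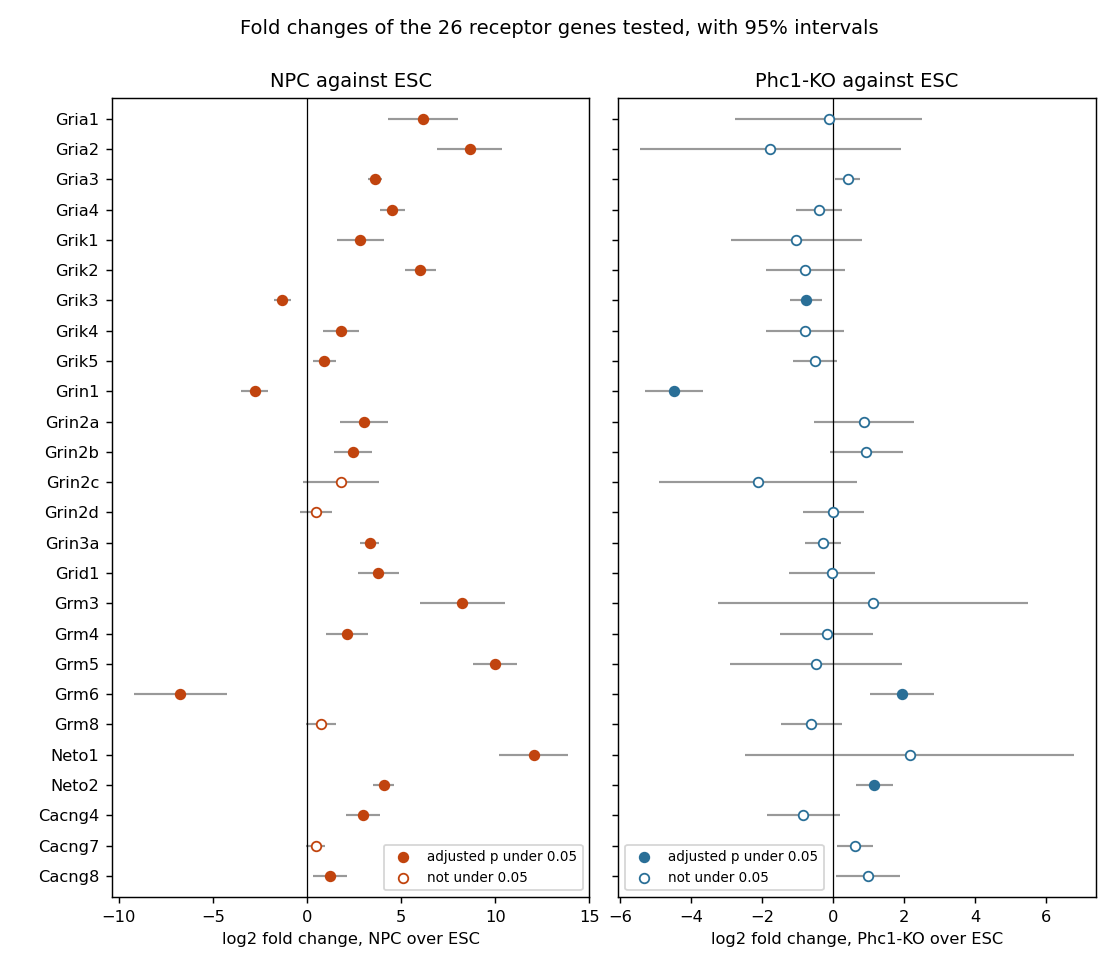
Log2 fold change, with 95% interval, of the 26 receptor genes tested, for NPC over ESC on the left and Phc1-KO over ESC on the right, on separate scales. Filled points have an adjusted p under 0.05. There are 22 filled points on the left and 4 on the right. Values for Neto1, which had no counts in ESC, and for Grm6 on the left, which had none in NPC, depend on the prior count of the fit.

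AMPA receptor subunits rose together in NPC: all 4 were higher than in ESC. Gria3, which encodes GluA3, was the one most shared between cell types. It had 247 and 273 CPM in NPC, 30.9 and 25.5 CPM in Phc1-KO, and 20.2 and 22.5 CPM in ESC. The NPC libraries lay far above the other 4, for a log2 fold change over ESC of 3.61 (SE 0.16, edgeR adjusted p = 1.17e-05). Gria4, which encodes GluA4, had 136 and 106 CPM in NPC, 2.93 and 4.93 CPM in Phc1-KO, and 5.06 and 5.35 CPM in ESC. The groups NPC and ESC did not overlap, and the log2 fold change was 4.54 (SE 0.28, edgeR adjusted p = 3.09e-05). Gria2 encodes GluA2, the subunit whose edited form keeps calcium out of the channel. It had 164 and 60.6 CPM in NPC, 0 and 0.145 CPM in Phc1-KO, and 0.308 and 0.243 CPM in ESC. It was close to silent in both stem cell groups, at 5 and 4 counts in ESC, and its log2 fold change in NPC was 8.63 (SE 0.72, edgeR adjusted p = 1.04e-04). Gria1, which encodes GluA1, had 8.61 and 31.8 CPM in NPC, 0.314 and 0.194 CPM in Phc1-KO, and 0.247 and 0.304 CPM in ESC. Its log2 fold change in NPC was 6.16 (SE 0.78, edgeR adjusted p = 5.64e-04).

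The NPC libraries differed from each other in these genes. Gria2 was higher in NPC 1 and Gria1 in NPC 2. The astrocyte markers Gfap and Aqp4 differed too, at 3.81 and 112 CPM for Gfap and 15.8 and 458 CPM for Aqp4 in NPC 1 and NPC 2. Aldh1l1 was level at 77.5 and 78 CPM, and S100b (10.7 and 8.44 CPM) and Aldoc (55.2 and 39.4 CPM) were higher in NPC 1. Over the 7 astrocyte markers the sum was 1045 and 2131 CPM in NPC 1 and NPC 2, of which Sparcl1 gave 882 and 1436 CPM, and Gjb6 had 7 and 0 counts. Olig2 had 254 and 58.6 CPM, and the fibroblast markers summed to 7108 and 11240 CPM. The progenitor markers summed to 4446 and 2561 CPM in NPC 1 and NPC 2. The neuron markers summed to 1106 and 517 CPM, of which Map2 gave 1006 and 448 CPM. The pair thus differed in markers of several cell types, and their part in the Gria1 and Gria2 levels was not tested.

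Levels per kilobase were taken over all annotated exon bases of a gene, not the transcripts present, so they compare genes only roughly. On this scale the AMPA subunits summed to 71.7 and 58.7 CPM per kb in NPC, 3.65 and 3.43 in Phc1-KO and 2.94 and 3.22 in ESC. Gria2 made up 32.9% and 14.9% of that sum in NPC, 0% and 0.608% in Phc1-KO, and 1.51% and 1.09% in ESC. Gria3 made up 34.9% and 47.2% in NPC, 85.8% and 75.5% in Phc1-KO, and 69.6% and 70.9% in ESC. The AMPA RNA of the stem cell groups was therefore mostly Gria3 with some Gria4, and that of NPC was shared among Gria2, Gria3 and Gria4.

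The subunit mix bears on the Q/R site, the codon in the pore that adenosine deaminases edit in Gria2, Grik1 and Grik2 RNA. The coding strand around this codon was taken from GENCODE M1 (mm9) transcripts. It is shown because every AMPA and kainate subunit held the residues MQQG, by which the codon was located. The first glutamine of that motif was taken, so a glutamine codon at this site follows from the search. Capitals mark the codon.
Gria1: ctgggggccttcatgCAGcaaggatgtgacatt
Gria2: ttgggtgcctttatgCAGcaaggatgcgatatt
Gria3: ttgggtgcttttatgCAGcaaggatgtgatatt
Gria4: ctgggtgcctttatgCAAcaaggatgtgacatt
Grik2: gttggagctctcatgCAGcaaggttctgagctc
Grik3: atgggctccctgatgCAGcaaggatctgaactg
The Gria2 codon lies at chr3:80510833-80510835 on the minus strand, in a coding exon. Over these 33 bases Gria3 is 93.9% identical to Gria2, Gria4 87.9% and Gria1 84.8%, and Grik2 and Grik3 are 63.6% and 69.7% identical. The annotated codon is CAG in Gria2 and CAA in Gria4. Counts per gene hold no base calls, so editing was not measured. Adarb1 encodes the deaminase ADAR2, which edits the Gria2 codon. It had 21.6 and 10.3 CPM in NPC, 21.9 and 24.5 CPM in Phc1-KO, and 28.8 and 30.1 CPM in ESC. It was lower in NPC than in ESC by a log2 fold change of -0.88 (SE 0.32, edgeR adjusted p = 0.0467).

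The RefSeq promoter window of Gria2 holds a match to the element that the repressor REST is known to bind in neuronal genes. The window below runs from 250 bases before to 50 bases after the RefSeq start of Gria2, and lies at chr3:80606708-80607007 in mm9, minus strand. Capitals mark each CpG.
Gria2: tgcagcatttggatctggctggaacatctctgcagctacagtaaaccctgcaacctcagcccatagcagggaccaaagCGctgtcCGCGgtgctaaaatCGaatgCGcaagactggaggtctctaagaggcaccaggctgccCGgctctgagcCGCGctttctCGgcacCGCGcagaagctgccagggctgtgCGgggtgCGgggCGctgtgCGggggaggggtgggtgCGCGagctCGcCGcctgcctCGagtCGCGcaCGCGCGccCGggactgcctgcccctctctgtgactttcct
The blocks AGCACC and GGACAG, with 2 bases between them, were searched on both strands. They were found on the strand opposite to the gene, at position -170 from its start, and are in capitals here.
Gria2, opposite strand: ttttAGCACCgcGGACAGcgct
This pair occurred in 1 of 26 member windows (3.85%) and in 17 of all 32851 RefSeq windows (0.0517%). GGACAG alone, which the pair contains, occurred in 34.6% of member windows and 22.2% of all windows. Of the 32 genes, 21 had a window, some with more than 1. Gria1, Gria3, Grin3a, Grm5 and Neto1 were among those without a window, and a single match gives no rate for the members. A match describes the letters and is not a measured site, and binding of REST was not tested. Rest itself had 164 and 252 CPM in NPC, 969 and 975 CPM in Phc1-KO, and 687 and 694 CPM in ESC. It was lower in NPC than in ESC, with a log2 fold change of -1.73 (SE 0.21, edgeR adjusted p = 4.26e-04).

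Kainate receptor subunits split in NPC: Grik1, Grik2, Grik4 and Grik5 were higher than in ESC and Grik3 was lower. Grik2 encodes GluK2, a subunit that forms channels on its own. It had 42.4 and 37.7 CPM in NPC, 0.471 and 0.242 CPM in Phc1-KO, and 0.802 and 0.426 CPM in ESC. The NPC libraries agreed closely with each other, and the log2 fold change over ESC was 6.01 (SE 0.35, edgeR adjusted p = 2.63e-05). Grik3, which encodes GluK3, ran the other way, at 17.5 and 17.5 CPM in NPC, 30.1 and 21.7 CPM in Phc1-KO, and 44.8 and 42.8 CPM in ESC. Its log2 fold change in NPC was -1.32 (SE 0.19, edgeR adjusted p = 0.00108). Grik5 encodes GluK5, which forms channels only with a GluK1, GluK2 or GluK3 partner. It had 33.1 and 22.2 CPM in NPC, 11.8 and 8.80 CPM in Phc1-KO, and 16 and 13.4 CPM in ESC, for a log2 fold change in NPC of 0.91 (SE 0.26, edgeR adjusted p = 0.0185). That call was lost without either ESC library or without NPC 1, at adjusted p between 0.0625 and 0.134.

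The remaining kainate genes were low. Grik4, the other subunit that needs a partner, had 4.01 and 4.61 CPM in NPC, 0.524 and 0.871 CPM in Phc1-KO, and 0.802 and 1.64 CPM in ESC. It was higher in NPC by 1.81 (log2, SE 0.41, edgeR adjusted p = 0.00722), though not without ESC 1 (adjusted p = 0.069). Grik1, which encodes GluK1, had 1.18 and 1.95 CPM in NPC, 0.105 and 0.0968 CPM in Phc1-KO, and 0.123 and 0.304 CPM in ESC. It rested on 18 and 30 counts in NPC and was higher there by 2.83 (log2, SE 0.52, edgeR adjusted p = 0.00294). Per kilobase, Grik3 was 11.6% and 14.2% of the kainate sum in NPC, 50.8% and 49.1% in Phc1-KO, and 52.9% and 55.0% in ESC. Grik2 was 30.6% and 33.4% in NPC and at most 1.03% in any stem cell library. In all groups Grik5 held 40.2% to 51.5% of the sum.

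NETO1 and NETO2 are membrane proteins that slow the kainate receptor current. Neto1 had 37.2 and 23.9 CPM in NPC, 0 and 0.0484 CPM in Phc1-KO, and 0 CPM in both ESC libraries. With 0 ESC counts, and a floor of 3 counts over the group, it was at least 332-fold higher in NPC. Neto2 had 186 and 138 CPM in NPC, 23.1 and 20.1 CPM in Phc1-KO, and 8.14 and 11.1 CPM in ESC. It was higher in NPC than in ESC by 4.07 (log2, SE 0.24, edgeR adjusted p = 2.67e-05). On levels per kilobase Neto2 was 3.47 and 4.0 times Neto1 in NPC.

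NMDA receptor subunits did not move together. Grin1 encodes GluN1, the glycine-binding subunit that every conventional NMDA receptor contains, and it was highest in ESC. It had 1.51 and 0.974 CPM in NPC, 0.367 and 0.387 CPM in Phc1-KO, and 8.33 and 8.94 CPM in ESC. The groups did not overlap, and the log2 fold change in NPC was -2.79 (SE 0.31, edgeR adjusted p = 3.10e-04). Grin3a encodes GluN3A, a glycine-binding subunit that lowers calcium entry and is known from the developing brain. It had 47.5 and 61.8 CPM in NPC, 4.56 and 4.40 CPM in Phc1-KO, and 5.06 and 5.90 CPM in ESC, a log2 fold change in NPC of 3.32 (SE 0.21, edgeR adjusted p = 3.74e-05). Per kilobase, Grin3a stood at 19.3 and 39.0 times Grin1 in NPC, 7.64 and 6.99 times in Phc1-KO, and 0.373 and 0.406 times in ESC. Outside ESC these ratios are imprecise, since Grin1 had 23 and 15 counts in NPC and 7 and 8 in Phc1-KO.

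Of Grin1's exon bases, 13.5% are shared with E130003G02Rik, a gene on the opposite strand, and the strand setting of the counting is not given in the sources used here. That gene had 4 and 2 counts in NPC, 0 and 1 in Phc1-KO, and 13 and 23 in ESC. It was thus also highest in ESC, and its share in the Grin1 counts was not tested.

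The GluN2 subunits bind glutamate and set the kinetics of the receptor. Grin2b had 10.7 and 4.74 CPM in NPC, 2.72 and 2.66 CPM in Phc1-KO, and 1.36 and 1.46 CPM in ESC, with a log2 fold change in NPC of 2.44 (SE 0.43, edgeR adjusted p = 0.0024). Grin2a had 5.0 and 2.01 CPM in NPC, 0.838 and 0.726 CPM in Phc1-KO, and 0.432 and 0.426 CPM in ESC, with a log2 fold change in NPC of 3.01 (SE 0.54, edgeR adjusted p = 0.00252). Both were higher in NPC 1 than in NPC 2 and did not overlap with ESC. Grin2c had 5.0 and 0.649 CPM in NPC, 0.262 and 0.0968 CPM in Phc1-KO, and 0.925 and 0.669 CPM in ESC, so NPC 2 lay below the ESC libraries. Its log2 difference from ESC was 1.81 (SE 0.86, edgeR adjusted p = 0.105), and -0.29 without NPC 1. Grin2d had 1.58 and 2.66 CPM in NPC, 1.47 and 1.6 CPM in Phc1-KO, and 1.36 and 1.70 CPM in ESC. The groups overlapped, and the 95% interval of its log2 difference between NPC and ESC ran from -0.38 to 1.32. Grin3b stayed between 0.263 and 0.484 CPM in every library and was not tested. Of its exon bases 32.1% are shared with ORF61 on the opposite strand, which had 47.6 to 70.6 CPM. The effect of this overlap on the Grin3b counts is not known.

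**Figure D3:**
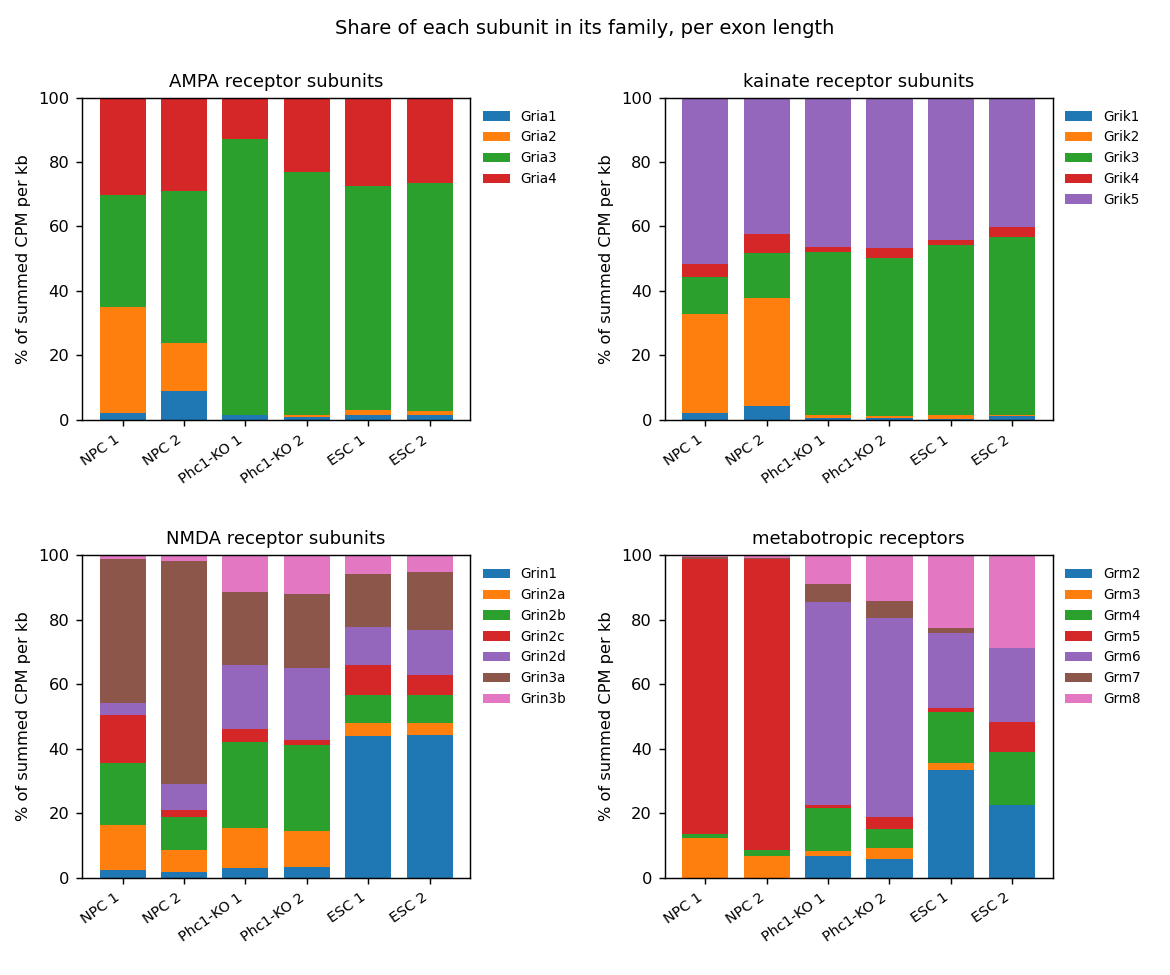
Share of each subunit in the summed CPM per kb of its family, in percent, for every library (NPC, Phc1-KO, then ESC, 2 bars each). Gria2 and Grik2 take visible shares in NPC bars alone, Grin1 takes 43.9% and 44.1% of the NMDA bars in ESC, and Grm5 takes 85.5% and 90.3% of the metabotropic bars in NPC. The metabotropic bars of the stem cell groups rest on few counts.

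Grid1 encodes a delta receptor, which is not opened by glutamate and binds synaptic organiser proteins. It had 11.9 and 12.6 CPM in NPC, 1.31 and 0.435 CPM in Phc1-KO, and 0.987 and 0.791 CPM in ESC. Its log2 fold change in NPC was 3.77 (SE 0.46, edgeR adjusted p = 4.81e-04).

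Among the metabotropic receptors, Grm5 stood far above the rest in NPC. It encodes mGlu5, a Gq-coupled receptor that releases calcium from stores. It had 272 and 180 CPM in NPC, 0.0524 and 0.242 CPM in Phc1-KO, and 0.0617 and 0.365 CPM in ESC, that is 4139 and 2772 counts in NPC against 1 and 6 counts in ESC. Of the metabotropic RNA per kilobase, Grm5 held 85.5% and 90.3% in NPC, 0.682% and 3.84% in Phc1-KO, and 1.05% and 9.29% in ESC.

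Grm3, a Gi-coupled receptor of group II that astrocytes are known to express, had 17.4 and 5.84 CPM in NPC, 0.0524 and 0.0968 CPM in Phc1-KO, and 0.0617 and 0 CPM in ESC. With 1 count over the ESC pair the ratio of NPC to ESC was 378, with a 95% counting interval of 67.3 to 14960. Grm4, of the Gi-coupled group III, had 2.24 and 2.34 CPM in NPC, 0.681 and 0.242 CPM in Phc1-KO, and 0.617 and 0.426 CPM in ESC, a log2 fold change in NPC of 2.12 (SE 0.47, edgeR adjusted p = 0.00686, and 0.0663 without ESC 2). Grm8, also of group III, had 2.37 and 1.69 CPM in NPC, 0.681 and 0.871 CPM in Phc1-KO, and 1.30 and 1.09 CPM in ESC. Its difference between NPC and ESC did not pass (edgeR adjusted p = 0.0885), with a 95% interval from -0.04 to 1.56 on the log2 scale.

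Grm6 encodes mGlu6, known as the glutamate sensor of ON bipolar cells in the retina. It had 0 counts in both NPC libraries, 62 and 54 counts in Phc1-KO, and 15 and 10 counts in ESC. In CPM these were 0 and 0 in NPC, 3.25 and 2.61 in Phc1-KO, and 0.925 and 0.608 in ESC. Taking 3 counts in the NPC pair as the floor, it was at least 7.81-fold lower in NPC than in ESC (edgeR adjusted p = 0.00198). Of its exon bases 11% are shared with Gm12660 on the opposite strand, which had 2 counts in Phc1-KO 1 and 0 in the other libraries. Grm2, of group II, followed a like order of NPC below ESC, with 0 and 0 counts in NPC, 4 and 3 in Phc1-KO and 13 and 6 in ESC, and was too low to test. Grm7, of group III, had 15 and 9 counts in NPC, 6 and 5 in Phc1-KO, and 1 and 0 in ESC, also untested.

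TARPs carry AMPA receptors to the membrane and slow their closing. Cacng4 had 10.5 and 5.97 CPM in NPC, 0.576 and 0.581 CPM in Phc1-KO, and 0.925 and 1.16 CPM in ESC, a log2 fold change in NPC of 2.97 (SE 0.38, edgeR adjusted p = 5.57e-04). Cacng5, its neighbour on chromosome 11, had 13.2 and 0.390 CPM in NPC, 0.314 and 0.145 CPM in Phc1-KO, and 0.185 and 0.487 CPM in ESC. It was high in NPC 1 alone and failed the filter. Cacng7 was detected in every library, with 13.7 and 11.8 CPM in NPC, 16.3 and 12.5 CPM in Phc1-KO, and 9.13 and 9.55 CPM in ESC. Its log2 difference between NPC and ESC was 0.45, with a 95% interval from -0.07 to 0.96. Cacng8, next to Cacng7 on chromosome 7, had 3.95 and 2.34 CPM in NPC, 2.57 and 2.76 CPM in Phc1-KO, and 1.05 and 1.64 CPM in ESC. It was called higher in NPC (log2 fold change 1.22, SE 0.38, edgeR adjusted p = 0.0281), but not without either ESC library, NPC 1 or either Phc1-KO library (adjusted p 0.059 to 0.2). Its annotated exons span 663 bases, which limits its counts. Cacng2, which encodes stargazin, reached at most 0.122 CPM in any library, and Cacng3 had no counts in any.

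Phc1-KO and ESC differed in 4 of the 26 receptor genes tested. Grm6 and Neto2 were higher in Phc1-KO, and Grin1 and Grik3 were lower. Over all genes 4.91% were higher and 5.75% lower, and the median log2 fold change was -0.24 over the receptor genes and 0.00 over all genes. The share called among the members, 7.69% in each direction, is near that background. With total-count scaling, 683 genes were higher and 1223 lower over all genes, against 858 and 1006 with TMM scaling, and the same 4 receptor genes were called. With DESeq2 size factors 924 were higher and 929 lower and Grik3 was lost (edgeR adjusted p = 0.0531), and the DESeq2 test called 1375 higher and 1165 lower. Grik3 also failed without a filter (adjusted p = 0.0693).

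Grin1 fell furthest in Phc1-KO, to 7 and 8 counts against 135 and 147 counts in ESC. Its mean was 0.377 ± 0.0144 CPM in Phc1-KO and 8.63 ± 0.435 CPM in ESC (SD, n = 2 each). The log2 fold change was -4.49 (SE 0.35, edgeR adjusted p = 0.0019). It passed in every alternative fit listed under processing, with adjusted p up to 0.0479. The antisense gene E130003G02Rik had 0 and 1 counts in Phc1-KO and 13 and 23 in ESC, so it moved with Grin1. Among its partners, Grin2b stood at 2.69 ± 0.0442 CPM in Phc1-KO and 1.41 ± 0.0729 CPM in ESC, and Grin2a at 0.782 ± 0.0794 and 0.429 ± 0.00419 CPM (SD, n = 2 each). Neither difference passed, at edgeR adjusted p of 0.208 for Grin2b and 0.384 for Grin2a. Grin2c stood at 0.179 ± 0.117 CPM in Phc1-KO and 0.797 ± 0.181 CPM in ESC (SD, n = 2 each), with an edgeR adjusted p of 0.277. With NPC left out of the fit the adjusted p was 0.0387 for Grin2b and 0.0381 for Grin2c.

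Grm6 was higher in Phc1-KO by 1.92 (log2, SE 0.37, edgeR adjusted p = 0.0305), at 2.93 ± 0.449 CPM in Phc1-KO and 0.767 ± 0.224 CPM in ESC (SD, n = 2 each). Neto2 was higher by 1.16 (log2, SE 0.22, edgeR adjusted p = 0.0243), at 21.6 ± 2.14 CPM in Phc1-KO and 9.64 ± 2.11 CPM in ESC. Grik3 was lower by a log2 fold change of -0.76 (SE 0.19, edgeR adjusted p = 0.0495), at 25.9 ± 5.93 CPM in Phc1-KO and 43.8 ± 1.38 CPM in ESC. Leaving out Phc1-KO 1 left Grin1 and Grik3 called, and leaving out Phc1-KO 2, ESC 1 or ESC 2, or counting the ESC pair as 1 library, left Grin1 alone. Under these settings the adjusted p reached 0.286 for Grm6, 0.221 for Neto2 and 0.36 for Grik3.

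The promoter windows of Grin1 and Grm6 are shown because, of the 4 genes called in Phc1-KO, Grin1 fell most and Grm6 rose most. Capitals mark each CpG. The windows lie at chr2:25174658-25174957 (minus strand) and chr11:50663937-50664236 (plus strand) in mm9.
Grin1: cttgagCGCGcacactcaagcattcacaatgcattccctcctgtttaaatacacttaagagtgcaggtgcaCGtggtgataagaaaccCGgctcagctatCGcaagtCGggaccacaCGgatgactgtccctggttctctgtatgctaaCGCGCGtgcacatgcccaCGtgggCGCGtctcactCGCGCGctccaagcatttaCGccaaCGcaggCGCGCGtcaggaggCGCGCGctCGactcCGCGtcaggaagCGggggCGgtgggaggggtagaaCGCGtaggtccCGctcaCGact
Grm6: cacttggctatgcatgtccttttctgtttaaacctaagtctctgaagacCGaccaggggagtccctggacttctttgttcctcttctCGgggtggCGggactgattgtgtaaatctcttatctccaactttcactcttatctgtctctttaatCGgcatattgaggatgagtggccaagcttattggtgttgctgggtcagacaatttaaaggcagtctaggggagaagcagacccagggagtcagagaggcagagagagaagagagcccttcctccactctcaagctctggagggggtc
The Grin1 window held 33 CpGs, a number that 8.56% of all RefSeq windows reach, and the Grm6 window held 4, a number that 68.6% reach. Of the other two genes called, Grik3 (lower) had 50 CpGs, and Neto2 (higher) had 36 in one window and 0 in another. Gria2, close to silent in both stem cell groups, had 26. The median was 15 over the 26 member windows and 7 over all windows.

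The other 22 receptor genes tested did not pass between Phc1-KO and ESC, which does not show that their levels were alike. The log2 difference was -2.13 for Grin2c (95% interval -4.92 to 0.66), -1.78 for Gria2 (-5.45 to 1.90) and -1.04 for Grik1 (-2.88 to 0.80), all low in both groups. For Gria3, at 28.2 ± 3.79 CPM in Phc1-KO and 21.3 ± 1.65 CPM in ESC, the 95% interval of the log2 difference ran from 0.04 to 0.76 (edgeR adjusted p = 0.131). For Grin3a it ran from -0.79 to 0.21, for Grik5 from -1.13 to 0.11 and for Gria4 from -1.04 to 0.25. For Gria1 and Grm5, with 10 or fewer counts in each group, it ran from -2.76 to 2.51 and from -2.91 to 1.93, so a change of several fold was not detectable at this depth. Cacng7 and Cacng8 were above ESC in both Phc1-KO libraries but did not pass, at edgeR adjusted p of 0.111 and 0.142.

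Phc1-KO was also set against NPC because of the conflicting cell type entry. Of the 26 genes tested, 21 were lower in Phc1-KO and 2 were higher, where 32.7% of all genes were lower and 32.3% were higher. This comparison shares the NPC and Phc1-KO libraries with the others, so its values are not independent of theirs. The 2 higher genes were Grm6, at least 29.8-fold, and Grik3, by 0.56 (log2, SE 0.19, edgeR adjusted p = 0.036). The Grik3 call was kept in 5 of 15 alternative fits, with adjusted p up to 0.0919 in the others. Grin1 was lower in Phc1-KO than in NPC by a log2 fold change of -1.70 (SE 0.38, edgeR adjusted p = 0.00662). The calls of Grin2a and Grin2b were lost without either Phc1-KO library, that of Grm8 without Phc1-KO 1 or with DESeq2, and that of Grin2c without either Phc1-KO library or NPC 1. The log2 fold change of Grin2c was -3.94, and -1.84 without NPC 1. Grin2d, Cacng7 and Cacng8 did not pass.

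Of 70 other genes of the glutamate pathway on 7 lists, 63 were tested, and 28 were higher in NPC than in ESC (44.4%) and 20 lower (31.7%). Over all genes these shares were 30.4% and 30.9%. Their median log2 fold change was 0.42. Both astrocyte uptake transporters on the list were higher in NPC. Slc1a2, which encodes the astrocyte transporter GLT-1, had 93.6 and 95.7 CPM in NPC against 2.78 and 1.70 CPM in ESC, a log2 fold change of 5.40 (SE 0.25, edgeR adjusted p = 1.29e-05). Slc1a3, which encodes GLAST, had 747 and 479 CPM in NPC against 42.4 and 44.0 CPM in ESC, a log2 fold change of 3.83 (SE 0.25, edgeR adjusted p = 3.92e-05). Of the other two Slc1 transporters, Slc1a6 was lower, at 0.789 and 1.49 CPM in NPC against 2.4 and 2.62 CPM in ESC (log2 fold change -1.13, SE 0.40, edgeR adjusted p = 0.0434). Slc1a1 did not pass, at 6.45 and 0.519 CPM in NPC against 3.02 and 2.62 CPM in ESC (edgeR adjusted p = 0.773). Of the 13 uptake and metabolism genes 5 were higher and 5 lower, and the largest fall was in the glutaminase Gls2, at -4.83. Vesicular transporters, which load glutamate into synaptic vesicles, stayed low: Slc17a8 was higher at 1.12 and 0.714 CPM in NPC against 0.123 and 0.122 CPM in ESC, and Slc17a7 was lower at 0.526 and 0.195 CPM in NPC against 1.85 and 1.76 CPM in ESC.

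Of the other AMPA receptor partners, 4 of 7 tested were higher in NPC and 2 were lower. Nptx1, a secreted pentraxin that clusters AMPA receptors, had 229 and 145 CPM in NPC, 15.4 and 7.40 CPM in Phc1-KO, and 0.925 and 0.912 CPM in ESC. Shisa6 rose by 3.07 on the log2 scale, and Shisa9 had 1 count over the ESC pair, for a ratio of 42.7 (95% counting interval 7.23 to 1727). Of the scaffold genes 6 of 20 were higher and 6 lower in NPC, 30% each way, against 30.4% and 30.9% over all genes. Lin7a rose most, at 23.9 and 87.5 CPM in NPC against 0.370 and 0.243 CPM in ESC, followed by Grip1 (log2 fold change 2.41), while Grip2 fell (log2 fold change -2.79). Of 15 signalling genes tested 11 were higher and 1 was lower, with a list median of 0.75. These included the kinases Camk2b (log2 fold change 3.77) and Prkca (log2 fold change 3.13) and, at -3.54, the nitric oxide synthase Nos1. Both editing enzymes tested, Adar and Adarb1, were lower. Rcor2, Rest and Sin3a of the REST list were lower, with log2 fold changes of -2.12, -1.73 and -1.41, and the fourth gene of that list, Rcor1, was higher.

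In Phc1-KO, 3 pathway genes were higher and 4 lower than in ESC out of 63, that is 4.76% and 6.35%, against 4.91% and 5.75% over all genes. These shares are near the background. Nptx1 rose by 3.62 (log2, SE 0.48, edgeR adjusted p = 0.00891) and Folh1, a carboxypeptidase that frees glutamate from a dipeptide, by 3.56 (log2, SE 0.69, edgeR adjusted p = 0.0255). The scaffold gene Homer3 rose by 1.36. Mpp2, Dlgap3, Itpr1 and Gls2 were lower, with log2 fold changes of -2.18, -1.09, -1.06 and -0.88. Slc1a2, Slc1a3, Adarb1 and Rest did not pass, with log2 differences of 0.62, -0.37, -0.34 and 0.49. The number called was 0 without either ESC library, 15 without either NPC library and 16 with only the 2 groups compared. Against NPC, 17 pathway genes were higher (27%) and 30 lower (47.6%) in Phc1-KO, where 32.3% of all genes were higher and 32.7% lower. Per list, the largest such changes were in Shisa9, Nptx1 and Shisa6, Slc1a2, Slc1a3 and Gls2, Slc17a8 and Slc17a7, Lin7a, Grip1 and Mpp2, Camk2b, Gnao1 and Nos1, Adar, and Rcor2, Rest and Sin3a. Adarb1 did not pass there (edgeR adjusted p = 0.176).

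**Figure D4:**
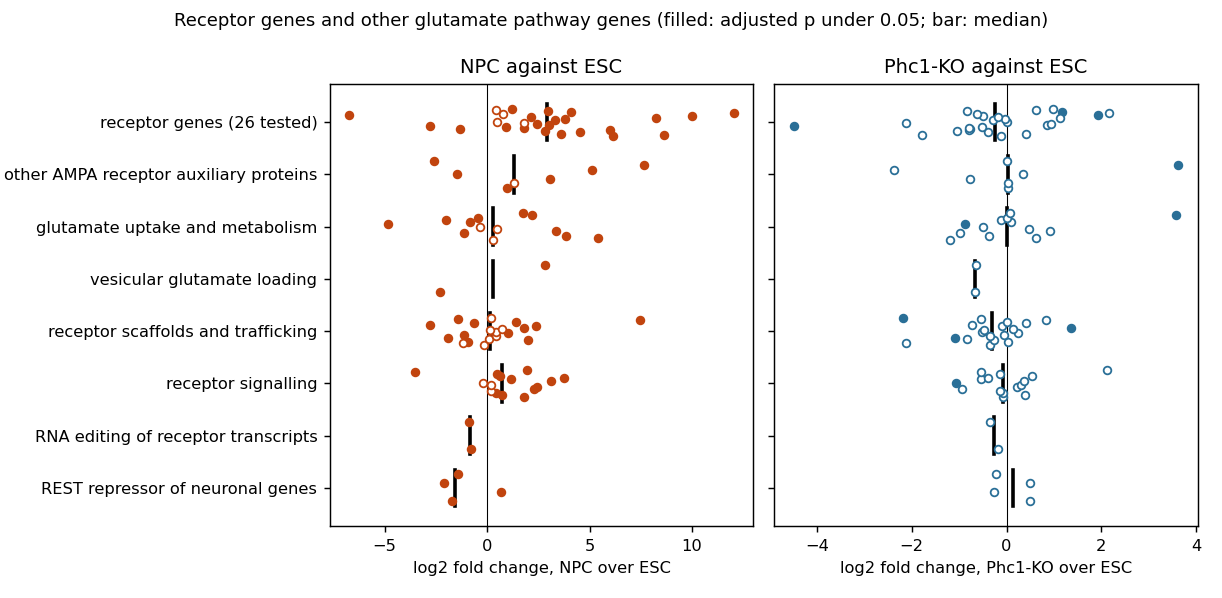
Log2 fold change of each gene tested (1 point per gene), for the 26 receptor genes and the 7 lists of other glutamate pathway genes, NPC over ESC on the left and Phc1-KO over ESC on the right. Filled points have an adjusted p under 0.05 and the black bar is the list median. The receptor median is 2.90 on the left and -0.24 on the right, against 0.75 and -0.07 for receptor signalling.

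Markers of other cell types also differed between NPC and ESC, some lists higher in NPC and some lower. Their part in the receptor levels was not tested. Of 8 fibroblast markers 7 were higher in NPC than in ESC, led by Fap, Dcn and Postn, and they summed to 7108 and 11240 CPM in NPC, 783 and 640 CPM in Phc1-KO, and 379 and 370 CPM in ESC. Of 6 astrocyte markers tested 5 were higher in NPC, led by Aqp4, Sparcl1 and Gfap, and of 8 progenitor markers tested 6 were higher, among them Olig2 and Fabp7, and Sox2, named after its values were seen, was lower at 103 and 75.4 CPM in NPC against 352 and 347 CPM in ESC. Of 12 neuron markers 5 were higher and 3 lower: Dcx and Map2 rose and Stmn2 fell. The mature neuron marker Rbfox3, named though outside the 3 largest changes, was low in every group. It had 5 and 0 counts in NPC, 14 and 6 in Phc1-KO, and 15 and 9 in ESC. Of 7 oligodendrocyte markers tested 2 were higher, Pdgfra and Cnp, and Mbp was lower. All 5 macrophage markers tested were lower in NPC, led by Emr1, Itgam and Ptprc, and all 7 stem cell markers were lower, led by Fgf4, Dppa5a and Tdgf1. In Phc1-KO, 4 of 8 fibroblast markers were higher than in ESC, led by Postn, Dcn and Lum, as was Pdgfra, and 3 of 5 macrophage markers, Emr1, Ptprc and Csf1r, were lower. Pax6 was higher and Msi1 lower among progenitor markers, Aldoc and Aldh1l1 were lower among astrocyte markers, and of the stem cell markers Fgf4 was higher and Nanog lower.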

How the data were processed

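RNA was measured in 6 libraries, 2 per group. Per the labels, TRIzol RNA was depleted of ribosomal RNA (Ribo-Zero Gold), prepared with TruSeq kits and read as 50-base single ends. The authors deposited raw, unscaled read counts for Ensembl genes. Per the submitters' processing notes, STAR, HTSeq and mm9 were used; no version, annotation or strand setting was given in the sources used here. The 5 closing tallies per table were left out; reads in no feature were 0.661 to 1.09 per read in a gene. GENCODE M1 (mm9) named 37205 of 37620 genes, and promoter windows came from RefSeq (GRCm38.p6). Of these, the windows shown for Gria2, Grin1 and Grm6 were matched exactly to mm9.

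Counts were tested with edgeR 4.0.16 in R 4.3.3 (quasi-likelihood F test, TMM, filterByExpr with a minimum count of 10 and total of 15, all 6 libraries, 3 residual degrees of freedom). P values were adjusted by Benjamini-Hochberg over 17489 genes, with a threshold of 0.05. The test was checked on simulated counts that gave every gene the same spread between libraries. That check does not cover genes whose spread in these data is larger. A group without counts was given 3 counts in all as a floor for folds, and a ratio against 1 to 3 counts has a 95% exact counting interval. Such a floor or exact interval reflects the number of reads alone and leaves out spread between libraries. The reads carry no molecular identifiers, so repeated copies of a molecule could not be told apart. The 95% intervals of log2 differences come from the edgeR fit, which also takes in spread between libraries. The labels call the libraries of a group biological replicates.

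Alternatives were DESeq2 1.42.0, limma-voom 3.58.1, scaling by DESeq2 size factors or total counts, a 1 CPM filter or none, only the 2 groups compared, a replicate block, each library left out, the ESC pair counted as 1, and other detection levels. The members and lists were chosen with earlier results of these data known. Members at 1 CPM or more in both libraries of a group, or called in any comparison, are given in every library. Of the other lists, the 3 largest called changes per comparison are named, with Slc1a2, Slc1a3, Adarb1 and Rest; of the marker lists these names are given for the comparisons with ESC, and 1 marker gene that met the rule is not reported here. Figures were drawn with matplotlib 3.10.9.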

Additional observations from a re-analysis of the deposited data

How the results depend on the processing

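In NPC against ESC, the number of receptor genes called was 22 and lay between 20 and 27 when each library was left out in turn; every alternative fit kept it within 1.5 times, and no called fold change changed sign. Calls of Cacng8, Grik5, Grik4 and Grm4 were lost in some fits, and Grm6 was not tested with only the 2 groups. Grin2c and Grm8 passed without NPC 2. Grm2 (lower) and Grm7 (higher), too low for the main test, passed in some fits that tested them. Cacng5, with 201 counts in NPC 1 and 6 in NPC 2, failed the main filter. It was called higher without a filter and without NPC 2, and its high level rests on NPC 1. The number of pathway genes called was 48, and between 32 and 49 with a library left out. In Phc1-KO against ESC, 4 receptor genes were called, between 1 and 6 with a library left out, and 1 with the ESC pair counted as 1; Grin1 was called each time. The 7 pathway genes called there became between 0 and 15 with a library left out, 1 with the ESC pair counted as 1, and 16 with only the 2 groups compared. Over all genes 1864 were called in that comparison, 145 with the ESC pair as 1, 3899 with only the 2 groups and 92 without ESC 2; why was not tested. In Phc1-KO against NPC, 23 receptor genes were called, between 18 and 24 with a library left out, and 47 pathway genes, between 38 and 49.

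Libraries share replicate numbers but no stated batch. Deviations of same-numbered libraries correlated at -0.021, 0.017 and 0.020, and with the replicate block 22, 3 and 23 receptor genes were called in the 3 comparisons; Grik3 in Phc1-KO against ESC did not pass (adjusted p = 0.0577). At 1 CPM per kb, 16 genes were detected in NPC, 6 in Phc1-KO and 6 in ESC. Depth limits genes with fewer than about 10 counts in a group.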
